A study of Mus musculus with 6 samples.

Results

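The 9 genes described here are Grn, which encodes progranulin, 3 genes of proteins that meet progranulin on its way to or in the lysosome (Sort1, Psap and Tmem106b), and 5 genes linked to neurodegeneration and to the control of lipid droplets (Npc2, Cln3, Snx17, Vps35 and Slc33a1). They were taken by symbol from a table of 16179 genes, in which all 9 are present, and all 9 passed the filter on low values that left 12821 genes for testing. The libraries hold RNA of microglia, the resident macrophages of the brain, from hippocampi of 10-month-old male mice of the progranulin knockout strain B6.129S4(FVB)-Grntm1.1Far/Mmja. Live CD11b+ CD45-low cells were separated by BODIPY, a dye for neutral lipid, into BODIPY-high (rich in lipid droplets) and BODIPY-low (poor in lipid droplets) fractions of about 10000 cells. Each group has 3 libraries, and each library pools the hippocampi of 2 mice. The knockout allele is common to both groups, wild-type mice were not analysed here, and the comparison is between lipid droplet-rich and lipid droplet-poor microglia that both lack progranulin. Nothing says whether a BODIPY-high and a BODIPY-low library came from the same pool, and each p-value reflects the spread over 6 libraries alone.

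Progranulin is a secreted glycoprotein that also reaches the lysosome, where proteases cut it into granulins. Sortilin, the product of Sort1, binds progranulin at the cell surface and carries it to lysosomes, and prosaposin, the product of Psap, offers a second route by carrying it to other lysosomal sorting receptors. In humans, loss of 1 copy of GRN causes frontotemporal dementia, loss of both copies causes a neuronal ceroid lipofuscinosis (a lysosomal storage disease), and variants at TMEM106B modify the risk of the dementia. The other genes act at neighbouring steps of lipid and membrane traffic, in the lysosome, on recycling endosomes or in the endoplasmic reticulum.

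Promoter letters are shown for the 2 genes of the set that hold CACGTG, the core of the element bound by TFEB, a regulator of lysosomal genes, and for Npc2, the gene whose level passed the test below. Sequences are RefSeq's on GRCm38.p6, in which 7 of the 9 genes had a promoter entry (Sort1 and Vps35 are named only). The search covered the 250 bases before each start, and this motif, which reads the same on both strands, is present in 6.02% of all 32851 such windows. In the first 3 lines capitals mark it within 30 bases of the minus strand, at chr3:63964841-63964870, chr7:126583368-126583397 and chr7:126583340-126583369.
Slc33a1: aaaacccgcgctCACGTGgcgacgagggcc
Cln3, upstream site: gcaaccctcaagCACGTGatggaaggctca
Cln3, downstream site: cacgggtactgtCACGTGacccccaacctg
Npc2: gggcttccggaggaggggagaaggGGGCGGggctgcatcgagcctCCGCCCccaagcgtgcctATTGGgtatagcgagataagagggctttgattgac
The sites begin 125 bases before the start in Slc33a1, and 149 and 121 bases before the second of the 2 listed starts of Cln3. Both Cln3 sites lie within the annotated gene (chromosome 7, 126571207 to 126585817), and the window of its first listed start holds no CACGTG. Windows of both genes overlap annotated exons over all 250 bases. The downstream Cln3 site has T before and A after the motif, a longer palindrome present in 0.785% of the windows. The Npc2 stretch of 98 bases (chr12:84773153-84773250, minus strand) lies outside every annotated exon. Its capitals mark GC boxes, searched as GGGCGG on both strands and present in 32.7% of the windows, and a CCAAT box, searched on both strands under its own letters and present in 33.8%. These matches describe the windows and were not tied to binding by any measurement here.

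The libraries hold between 24982215 and 34899425 reads on genes. Of the 10 microglial markers (P2ry12, Tmem119, Cx3cr1 and others) 0 rose and 1 fell, all 10 were detected, and their summed level was 1456880 to 1594000 normalised reads in BODIPY-high and 1591610 to 1856950 in BODIPY-low libraries. Markers of other cells, on lists chosen with earlier results of these data known, moved with the sort. Of all tested genes, 9.79% were higher and 3.52% lower in BODIPY-high libraries by limma at an adjusted p below 0.05. All 8 choroid plexus and ependyma markers were higher, with summed levels of 150651 to 263676 in BODIPY-high and 3735 to 18552 in BODIPY-low libraries. Of 10 neutrophil markers 9 were lower, at 204 to 2307 in BODIPY-high and 29881 to 79837 in BODIPY-low libraries, and so were 3 of 5 tested monocyte markers, at 429 to 1282 and 6223 to 13095. Smaller lists of border macrophages (1 of 7 higher), neurons (1 of 5), astrocytes (2 of 6), endothelium (1 of 6) and oligodendrocytes (0 of 5 by limma) had median log2 fold changes of 0.55, 1.37, 1.28, 0.06 and 0.35. In bulk samples of this kind fewer cells of a type and less RNA per cell cannot be told apart, and the part of these cells in the results below was not tested.

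Across all genes, 13.3% of those tested passed limma's test at a Benjamini-Hochberg adjusted p below 0.05, 9.79% higher and 3.52% lower in BODIPY-high libraries. Of the 9 genes 1 passed, Npc2, which was higher, and 8 did not, a count near that background. The median log2 fold change of the 9 was 0.05, beside -0.01 for all tested genes. By limma 0 of the 9 were lower, and neither edgeR (12.8% of tested genes called) nor DESeq2 (16.6%) called any of them lower. An unadjusted p under 0.05 was found for 1 of the 9 and for 27.1% of tested genes. Groups did not overlap for 2 of the 9, Npc2 with BODIPY-high above (18.0% of tested genes) and Sort1 with BODIPY-high below (13.4%), against 31.3% of tested genes in either direction. For the other 7 the groups overlapped, as the plot of values by library shows.

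**Figure D1:**
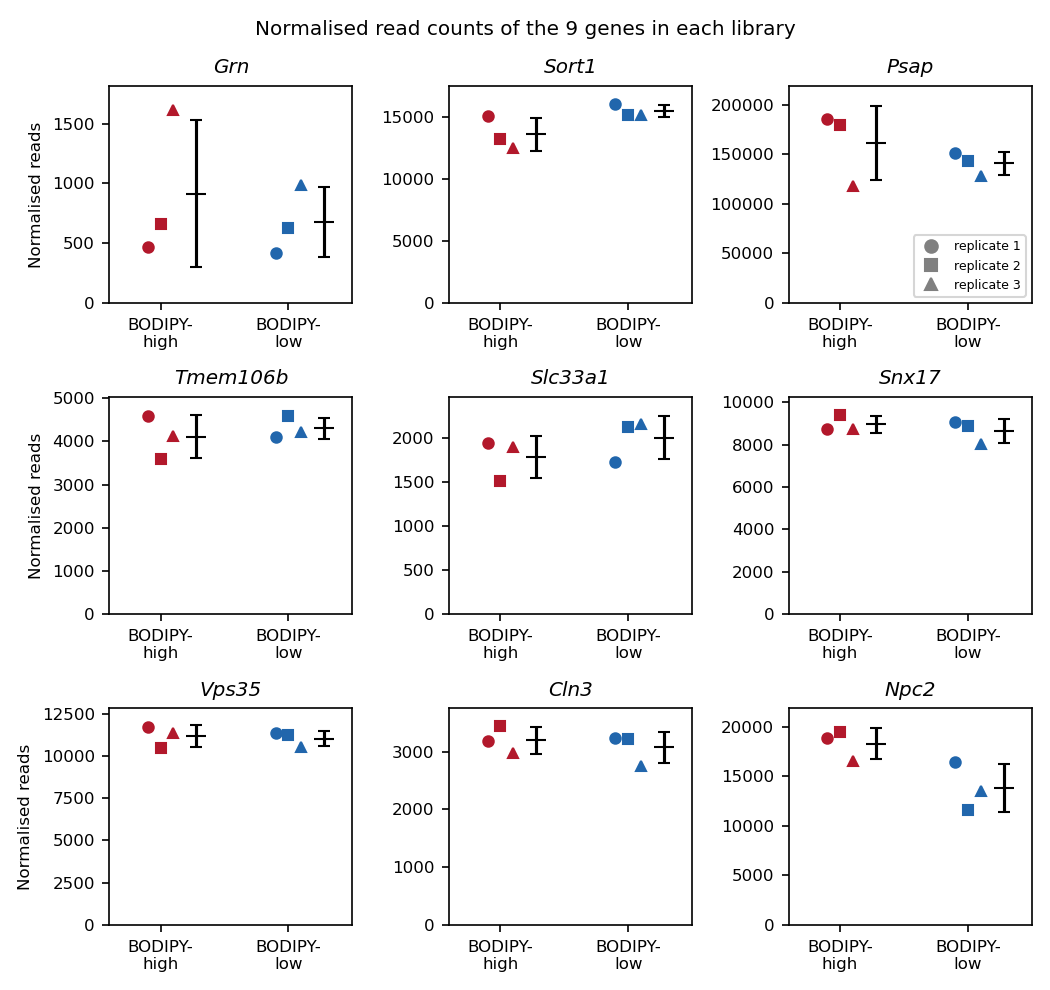
Normalised read counts (y axis, starting at 0) of the 9 genes in the 3 BODIPY-high (red) and 3 BODIPY-low (blue) libraries, with marker shapes for the replicate number and black bars for mean ± SD. Npc2 is the gene whose BODIPY-high values all lie above its BODIPY-low values, Sort1 the gene whose BODIPY-high values all lie below, and Grn spans 416 to 1614.

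Grn itself (GRCm38 chromosome 11, 102430315 to 102437048, plus strand) still collected reads in the knockout. It had 468, 657 and 1614 normalised reads in the BODIPY-high libraries (replicates 1, 2 and 3 in this order throughout), against 416, 625 and 990.1 in the BODIPY-low libraries. The groups overlapped widely, and replicate 3 was the highest of its group in both. The log2 fold change by limma was 0.31 with a 95% interval of -0.58 to 1.21 (SE 0.41, adjusted p = 0.675), wide enough to hold a change of either sign. Without BODIPY-high replicate 3 the fold change was -0.20, and without BODIPY-low replicate 1 it was 0.01. Among 9893 genes with a mean of at least 100, Grn had a larger within-group spread than 98.6%, with a residual SD of 0.79 on the log2 scale. The table counts reads per gene, so whether they come from the part that the allele leaves was not analysed here.

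Of genes with exons on the other strand, Fam171a2 shares 68 exonic bases with Grn, and the kits named in the labels do not mark strand. Its levels were low beside those of Grn, at 29.2, 53.2 and 54.8 normalised reads in BODIPY-high and 84.6, 56.5 and 82.6 in BODIPY-low libraries. The genes most like Grn over the 6 libraries, by Pearson's r of log2 values among 9892 genes with a mean of at least 100, were 2310067B10Rik (r = 0.981), Tmem38b (0.980), which encodes a potassium channel of intracellular membranes, and Unc45a (0.979), a myosin chaperone. These coefficients rest on 6 libraries that share the same sort and describe a ranking only. Tmem38b, for example, had 264, 300.1 and 407 normalised reads in BODIPY-high and 257, 275 and 323 in BODIPY-low libraries.

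Sort1, the gene of the progranulin receptor sortilin (chromosome 3, 108284082 to 108361511), was counted at 15112, 13203 and 12537 normalised reads in the BODIPY-high libraries, against 16031, 15213 and 15181 in the BODIPY-low libraries. All BODIPY-high values lay below all BODIPY-low values, by a margin of 69.0 normalised reads at the nearest pair. The antisense gene Gm12523 shares 338 exonic bases with Sort1, but no values are given under its symbol, so its own level could not be analysed. The log2 fold change of -0.19 (SE 0.09, 95% interval -0.38 to 0.01) did not pass the test (limma adjusted p = 0.197). It stayed negative when any library was left out, between -0.27 and -0.13. Sorl1, a relative of sortilin that sorts cargo between endosomes and the Golgi, averaged 3422 ± 226 in BODIPY-high and 3353 ± 622 in BODIPY-low libraries (SD, n = 3 each, log2 fold change 0.04, limma adjusted p = 0.870).

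Psap, the gene of prosaposin (chromosome 10, 60277627 to 60302597), was by far the most abundant transcript of the set. It had 185730, 179804 and 118046 normalised reads in the BODIPY-high libraries, against 151032, 143112 and 128571 in the BODIPY-low libraries. BODIPY-high replicates 1 and 2 exceeded every BODIPY-low library, whereas BODIPY-high replicate 3 had the lowest value of all 6. The limma log2 fold change was 0.17 (SE 0.16, 95% interval -0.17 to 0.51, adjusted p = 0.542). Leaving out BODIPY-high replicate 3 gave 0.38 (adjusted p = 0.0795), and leaving out BODIPY-high replicate 1 gave 0.05. That library, BODIPY-high replicate 3, also had the highest value of Grn.

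Tmem106b encodes a membrane protein of late endosomes and lysosomes (chromosome 6, 13069759 to 13089269). Its normalised reads were 4592, 3592 and 4135 in the BODIPY-high libraries, against 4108, 4579 and 4230 in the BODIPY-low libraries. The BODIPY-high libraries held both the highest and the lowest value, and the log2 fold change was -0.07 (SE 0.10, 95% interval -0.30 to 0.16, limma adjusted p = 0.706). It was 0.02 without BODIPY-high replicate 2.

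Npc2 encodes a soluble lysosomal protein that takes up cholesterol and hands it to the membrane transporter NPC1 (chromosome 12, 84754562 to 84773152). It had 18917, 19452 and 16535 normalised reads in the BODIPY-high libraries, against 16449, 11626 and 13517 in the BODIPY-low libraries. All BODIPY-high values lay above all BODIPY-low values, with 85.3 normalised reads between the lowest BODIPY-high and the highest BODIPY-low library. Npc2 was higher in BODIPY-high microglia by a log2 fold change of 0.41 (SE 0.12, 95% interval 0.14 to 0.68, limma adjusted p = 0.0470), or 1.33-fold. The call sits at the threshold. It held without BODIPY-low replicate 1 (adjusted p = 0.00825) and was lost without each of the other 5 libraries (0.0984, 0.122 and 0.0669 without BODIPY-high replicates 1, 2 and 3, and 0.178 and 0.147 without BODIPY-low replicates 2 and 3). DESeq2 also called it (adjusted p = 0.0126) and edgeR did not (0.0678). Choroid plexus markers were higher and neutrophil markers lower in the same libraries, at the summed levels given above, and their part in this result was not tested.

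Npc1, the gene of the receiving transporter, averaged 3013 ± 137 normalised reads in BODIPY-high and 2936 ± 364 in BODIPY-low libraries (SD, n = 3 each, log2 fold change 0.04, 95% interval -0.19 to 0.28, limma adjusted p = 0.840), and the difference between the fold changes of Npc2 and Npc1 was not tested. Over the 6 libraries the genes most like Npc2 were Itm2b (r = 0.997), which encodes the BRI2 membrane protein, Iscu (0.996), the scaffold of iron-sulphur cluster assembly, and l7Rn6 (0.990). Itm2b had 172983, 175820 and 165892 normalised reads in BODIPY-high and 164759, 147804 and 153286 in BODIPY-low libraries. As with Npc2, its BODIPY-low replicate 1 lay closest to the BODIPY-high libraries. Itm2b was picked for its likeness to Npc2 over these libraries, so this shared pattern is not a separate result.

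**Figure D2:**
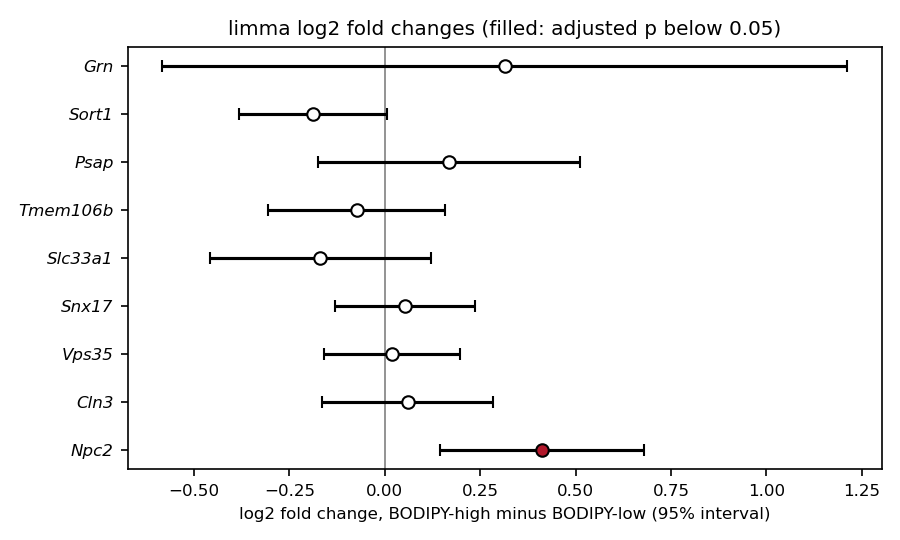
Log2 fold changes by limma (x axis, BODIPY-high minus BODIPY-low) of the 9 genes, with 95% intervals as bars and a filled point where the adjusted p is below 0.05. Npc2 is filled at 0.41, the other intervals include 0, and that of Grn, from -0.58 to 1.21, is the widest of the 9.

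Cln3 encodes a lysosomal membrane protein whose loss causes juvenile neuronal ceroid lipofuscinosis in humans (chromosome 7, 126571207 to 126585817). The BODIPY-high libraries had 3184, 3444 and 2973 normalised reads, and the BODIPY-low libraries 3242, 3222 and 2757. The groups overlapped, and the log2 fold change of 0.06 (SE 0.10, 95% interval -0.17 to 0.28, limma adjusted p = 0.761) was -0.02 without BODIPY-low replicate 3. Exons of Cln3 share 442 bases with those of Apobr, a receptor for apolipoprotein B, on the other strand. Apobr fell to 432 ± 40.0 normalised reads in BODIPY-high libraries, against 673 ± 70.1 in BODIPY-low libraries (SD, n = 3 each, log2 fold change -0.64, limma adjusted p = 0.0169), and how reads in the shared bases were counted is not known.

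Snx17 and Vps35 belong to recycling machines that take cargo out of endosomes before it reaches the lysosome. Snx17, the cargo adaptor of the retriever complex (chromosome 5, 31193227 to 31199143), was counted at 8718, 9413 and 8745 normalised reads in the BODIPY-high libraries, against 9039, 8865 and 8011 in the BODIPY-low libraries. Vps35, the core of the retromer complex (chromosome 8, 85260392 to 85299802), was counted at 11726, 10478 and 11336 in the BODIPY-high libraries, against 11337, 11248 and 10502 in the BODIPY-low libraries. Groups overlapped for both genes. Log2 fold changes by limma were 0.05 for Snx17 (95% interval -0.13 to 0.24, adjusted p = 0.733) and 0.02 for Vps35 (-0.16 to 0.20, adjusted p = 0.914). Both genes were among the steadiest of the 9893 genes, of which 9.47% and 7.19% had a smaller within-group spread. Those genes include many of lower level, and spread was not compared at a matched level. For Vps35 the fold change was -0.02 without BODIPY-high replicate 1 or without BODIPY-low replicate 3.

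Antisense neighbours of this pair were also measured. Snx17 shares 204 exonic bases with Eif2b4, a subunit of a translation initiation factor, and 163 with the zinc finger gene Zfp513. Vps35 shares 171 with Orc6, a subunit of the origin recognition complex. Zfp513 fell to 1021 ± 74.6 normalised reads in BODIPY-high libraries, against 1361 ± 82.8 in BODIPY-low libraries (SD, n = 3 each, log2 fold change -0.42, limma adjusted p = 0.0347), while Eif2b4 (-0.05) and Orc6 (-0.21) did not pass.

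Slc33a1 encodes the transporter that brings acetyl-CoA into the endoplasmic reticulum (chromosome 3, 63933507 to 63964768). Normalised reads were 1936, 1509 and 1900 in the BODIPY-high libraries, against 1720, 2121 and 2159 in the BODIPY-low libraries. The groups overlapped, with BODIPY-high replicate 2 the lowest of the 6, and the log2 fold change was -0.17 (SE 0.13, 95% interval -0.46 to 0.12, limma adjusted p = 0.462). It kept its sign with each library left out in turn, from -0.27 to -0.05. The antisense gene Gm26850 shares 1136 exonic bases with Slc33a1. No values are given under its symbol, so its own level could not be analysed.

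Levels of different genes can be set side by side once divided by length. Per kilobase of annotated exon, averaged over the 6 libraries, Psap stood at 55047 normalised reads and ranked 15 of 12346 tested genes with a known length. Npc2 (2957), Snx17 (2847), Sort1 (1922) and Vps35 (1248) followed, then Tmem106b (607), Cln3 (543) and Slc33a1 (533), and Grn came last at 229, above 64.3% of tested genes. The length used for Grn is that of the annotated gene. What part of it the knockout allele leaves was not analysed here, so its level and place may not compare with the others. Ranges over libraries overlapped between Npc2 (2138 to 3577) and Snx17 (2592 to 3045), and among Tmem106b (518 to 663), Cln3 (477 to 596) and Slc33a1 (425 to 609). Grn (120 to 464 per kilobase) overlapped Slc33a1 through its highest library. Snx17, Sort1 (1656 to 2118) and Vps35 (1177 to 1318) did not overlap each other.

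The order depends in part on the length used. Divided by the length of the principal transcript, a choice made after seeing the data, Vps35 stood at 3196 per kilobase and passed Sort1 (2140), and Cln3 at 979 passed Tmem106b (701). Psap (56849), Npc2 (4875) and Snx17 (4360) kept the first 3 places, and Grn, again divided by an annotated length, the last (339.8).

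**Figure D3:**
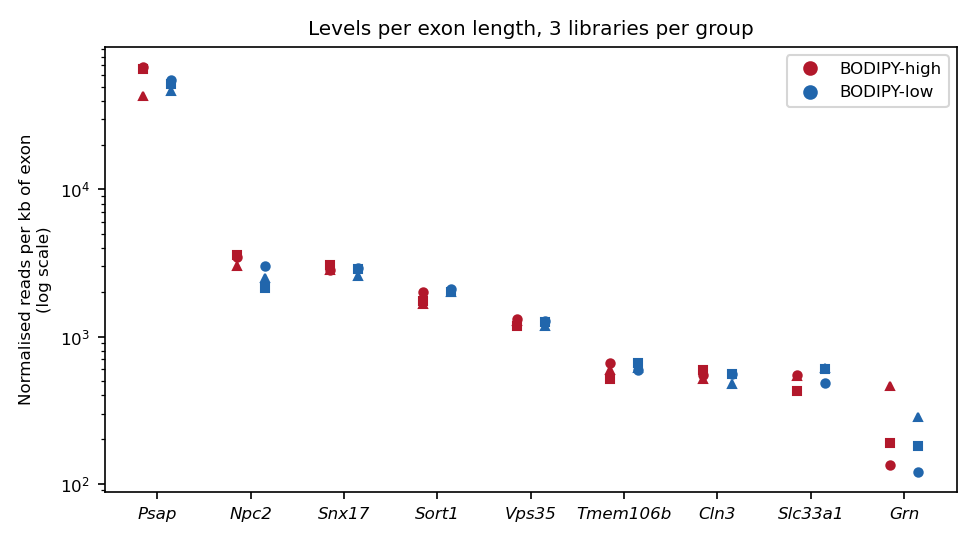
Normalised reads per kilobase of annotated exon (y axis, log scale) of the 9 genes in 3 BODIPY-high (red) and 3 BODIPY-low (blue) libraries, ordered by mean level, with shapes for the replicate number as in the plot of values by library. Psap lies at or above 43019.6 in every library, and Grn, the targeted gene, lies between 120 and 464.

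The wider pathway was described with 6 lists, whose counts come from the same fit across all genes, in which 9.79% of tested genes were higher, 3.52% lower and 27.1% at an unadjusted p under 0.05. Of 26 tested genes for progranulin receptors, binding partners and processing, 1 rose (3.85%) and 4 fell (15.4%), with a median log2 fold change of 0.02. By limma 11 of the 26 had an unadjusted p under 0.05 (42.3%). Igf2r, the cation-independent mannose 6-phosphate receptor that sends enzymes to lysosomes, had 444, 204 and 403 normalised reads in BODIPY-high and 111, 89.5 and 123 in BODIPY-low libraries (log2 fold change 1.62, SE 0.30, limma adjusted p = 0.00515). The smaller receptor M6pr was level, at 12776 ± 202 and 12785.5 ± 108 in BODIPY-high and BODIPY-low libraries (SD, n = 3 each, log2 fold change -0.00, 95% interval -0.16 to 0.16).

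Among the falls were Mmp14, a membrane metalloproteinase (612 ± 80.8 in BODIPY-high and 967 ± 109 in BODIPY-low libraries, SD, n = 3 each, log2 fold change -0.66, limma adjusted p = 0.0132), and Tnfrsf1b, a receptor for tumour necrosis factor (-0.27, adjusted p = 0.0482). The others were the neutrophil proteases Elane and Prtn3, which cleave progranulin. Elane had 2.83, 0 and 0 normalised reads in BODIPY-high and 27.4, 115 and 102 in BODIPY-low libraries, and Prtn3 1.88, 5.66 and 3.97 in BODIPY-high and 17.2, 36.2 and 25.1 in BODIPY-low libraries (limma adjusted p = 0.0401 for Prtn3). They fell in the libraries in which 8 of the 9 neutrophil markers other than Elane were lower. With 1 library left out, Tnfrsf1b lost its call in each case (adjusted p 0.0594 to 0.174, and also 0.0659 with no filter, 0.0518 with a mean of at least 50 and 0.0560 with edgeR), Mmp14 without BODIPY-low replicate 2 (0.0505), and Prtn3 in each case except without BODIPY-high replicate 2 (0.0575 to 0.206 otherwise).

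Lysosomal cholesterol egress had 2 of 13 tested genes higher (15.4%), Npc2 and Lamp1, and 0 lower by limma, with 4 at an unadjusted p under 0.05 (median 0.01). Lamp1, an abundant lysosomal membrane protein, averaged 83631 ± 5054 in BODIPY-high and 68314 ± 2721 in BODIPY-low libraries (SD, n = 3 each, log2 fold change 0.29, SE 0.08, limma adjusted p = 0.0401), and held with 1 library left out only without BODIPY-low replicate 1 (up to 0.140 otherwise). Its call was also lost with no filter on low values (0.0684) and with TMM normalization (0.0566). Of 13 sphingolipid activators and hydrolases, Gm2a and Glb1 rose (15.4%) and Pla2g15 fell (7.69%), with 4 at an unadjusted p under 0.05 (30.8%) and a median of 0.05. Gm2a, the activator protein for ganglioside breakdown, averaged 16214 ± 1067 and 12875 ± 163 in BODIPY-high and BODIPY-low libraries (log2 fold change 0.33, SE 0.08, limma adjusted p = 0.0183), Glb1, the lysosomal beta-galactosidase, rose by 0.31 (adjusted p = 0.0414), and Pla2g15, a lysosomal phospholipase, fell by 0.31 on the log2 scale (adjusted p = 0.0344). Gm2a was lost without BODIPY-low replicate 2 or 3 (0.0709 and 0.0636), and Glb1 and Pla2g15 held only without BODIPY-high replicate 2 (up to 0.170 and 0.153 otherwise). Glb1 did not pass with edgeR either (0.0528).

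The list of neuronal ceroid lipofuscinosis genes, which holds Grn and Cln3, had 0 calls among 13 tested by limma, 3 at an unadjusted p under 0.05 (23.1%), 1 by edgeR and 2 by DESeq2 (median 0.05). The list of the retromer, retriever and CCC recycling complexes also holds genes of the WASH complex. Of its 32 genes, 1 rose (3.13%) and 0 fell by limma, 5 had an unadjusted p under 0.05 (15.6%), and the median was 0.12. Vps29, a subunit of retromer and of retriever alike, had 1936, 2027 and 1943 normalised reads in BODIPY-high and 1624, 1422 and 1404 in BODIPY-low libraries (log2 fold change 0.41, SE 0.10, limma adjusted p = 0.0231), and lost this call when replicate 2 or replicate 3 of a group was left out (adjusted p at most 0.108). Its partners in retromer did not pass, with log2 fold changes of 0.02 for Vps26a and -0.06 for Vps26b, nor did the retriever subunits 9030624J02Rik (Vps35l, 0.18) and Dscr3 (Vps26c, 0.17).

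Around Slc33a1, 2 of 7 tested genes of acetyl-CoA supply and protein acetylation rose (28.6%) and 0 fell by limma, 5 had an unadjusted p under 0.05 (71.4%), and the median was 0.23. Acss2, which makes acetyl-CoA from acetate, had 270.4, 205 and 427 normalised reads in BODIPY-high and 86.9, 57.5 and 94.6 in BODIPY-low libraries (log2 fold change 1.87, SE 0.32, limma adjusted p = 0.00301). Slc25a1, the mitochondrial citrate carrier, averaged 1786 ± 89.1 and 1339 ± 63.4 in BODIPY-high and BODIPY-low libraries (SD, n = 3 each, log2 fold change 0.42, adjusted p = 0.0213), and was lost without replicate 2 of either group or replicate 3 of either group (0.0545 to 0.1000). Choroid plexus markers were higher in the same libraries, and their part in the rises of Igf2r and Acss2 was not tested.

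**Figure D4:**
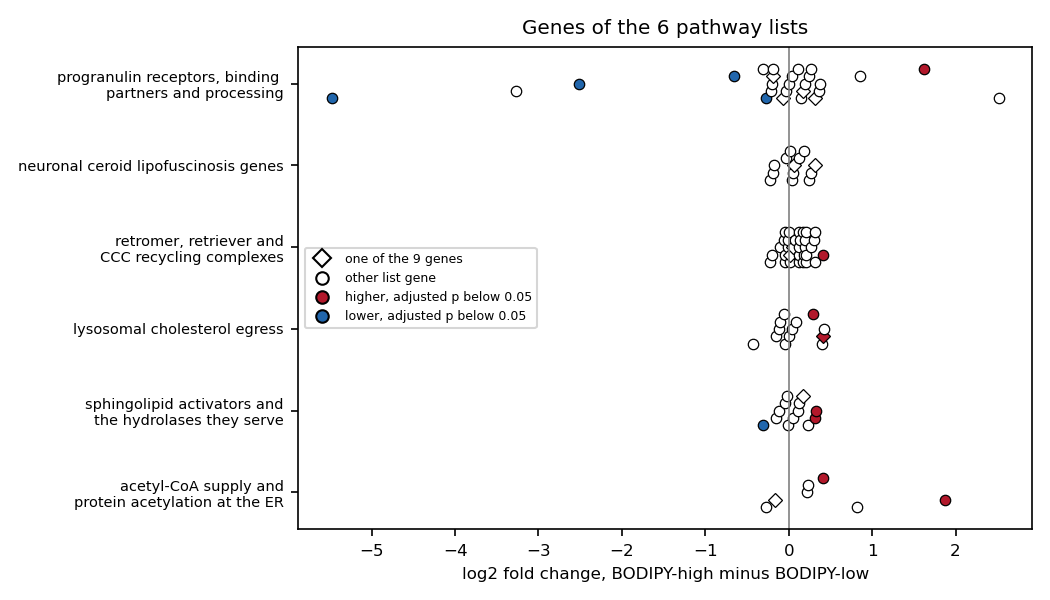
Log2 fold changes by limma (x axis, BODIPY-high minus BODIPY-low) of tested genes in 6 pathway lists (rows). Diamonds are the 9 genes, circles other list genes, and filled points passed the test (red higher, blue lower). Most points lie near 0, and the fitted value of the leftmost point, Elane, depends on the pseudocount because its BODIPY-high libraries are almost without reads.

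**Figure D5:**
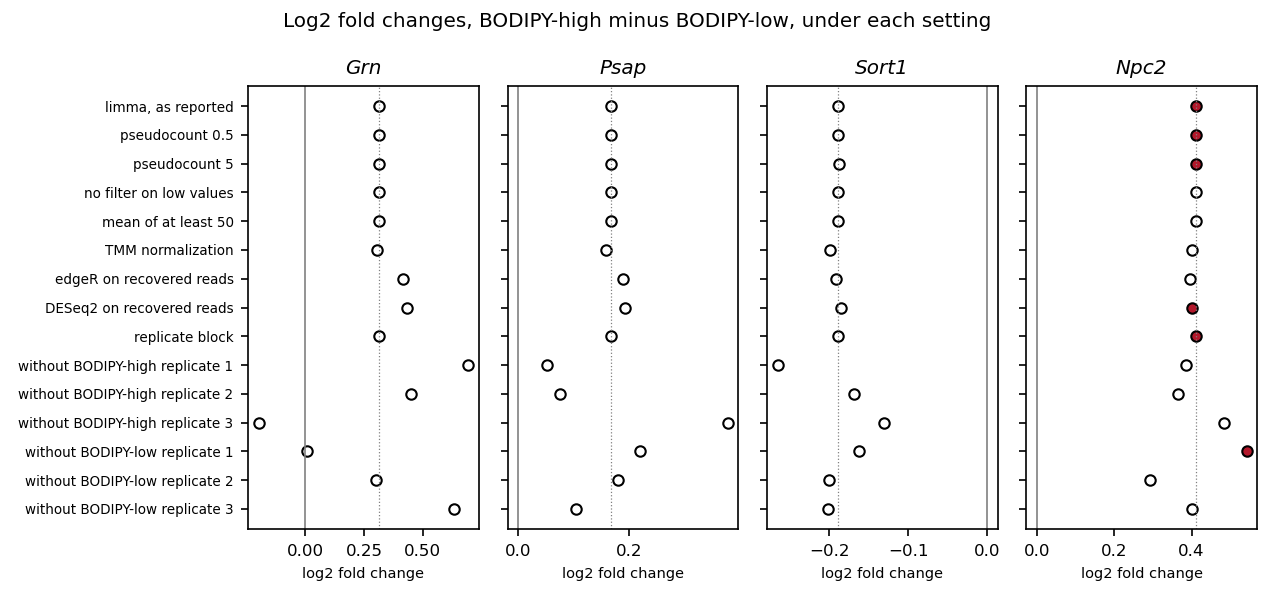
Log2 fold changes (x axis, BODIPY-high minus BODIPY-low) of Grn, Psap, Sort1 and Npc2 under each setting (rows), filled where the adjusted p is below 0.05, with the reported value as a dotted line. Grn crosses 0 without BODIPY-high replicate 3 (-0.20), and Npc2 stays positive from 0.29 to 0.54 but is filled in only part of the rows.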

How the data were processed

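Per the series' design text and the submitters' processing notes, FastQC 0.11.4, STAR 2.5.3a (gene counting included) and DESeq2 were used. The design text gives mm10 as the build, whereas mm9 and mm10 both stand in the notes. The annotation and strand setting of the counting were not given in the sources used here. Libraries were made with SmartSeq v4 and Nextera XT and read from both ends over 100 bases, per the labels' protocols.

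The deposited values are a signal: the authors divided read counts by 1 size factor per library. Whole reads were recovered as multiples of the smallest value per library, and 100% came out whole at a tolerance of 0.01 read. Total reads limit precision by counting error only for rare transcripts.

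Genes with a mean of at least 10 were tested with limma 3.58.1 in R 4.3.3 (two-sided, variance trend, no block) on log2(value + 1), BODIPY-high minus BODIPY-low, a scale that understates changes of low genes. The adjustment covers all 12821 genes. edgeR 4.0.16 and DESeq2 1.42.0 on recovered reads were alternatives, as were pseudocounts of 0.5 and 5, other filters, TMM scaling, a replicate block and leaving out each library. All 3 tools were tested on simulated data. Gene positions and lengths come from GENCODE M21 (GRCm38), which 96.0% of symbols matched, and older symbols in the lists were matched through RefSeq and gene name tables.

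The genes, the 6 pathway lists and the marker lists were chosen with earlier results of these data known. Named are the 9 genes, every called list gene, direct partners, genes on the other strand, and the 3 genes most like Grn and Npc2. Elane, though on the neutrophil marker list, is also in a pathway list.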

Additional observations from a re-analysis of the deposited data

How the results depend on the processing

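The number of the 9 genes called higher was 0 in place of 1 with no filter on low values, with a mean of at least 50, with TMM normalization and with edgeR, and 0 to 1 with 1 library left out. Npc2 then had log2 fold changes of 0.41, 0.41, 0.40 and 0.39 (adjusted p = 0.0517, 0.0518, 0.0520 and 0.0678), and 0.29 to 0.54 with 1 library left out. With 1 library left out, Grn ranged from -0.20 to 0.69, Tmem106b from -0.158 to 0.0189, Vps35 from -0.0163 to 0.0648 and Cln3 from -0.0166 to 0.112, while Sort1, Psap, Slc33a1 and Snx17 kept their signs. The other 8 genes passed the test under none of the settings run. The cause of these shifts was not tested.

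Over all genes, calls higher ranged from 689 to 1295 and calls lower from 151 to 523 with 1 library left out. The progranulin list had 2 higher and 1 lower with a mean of at least 50, 3 higher with edgeR and with DESeq2, and 1 to 2 higher and 1 to 4 lower with 1 library left out. The ceroid lipofuscinosis list had 1 higher with edgeR, 2 with DESeq2 and 0 to 1 with 1 library left out. Recycling complexes had 3 higher with DESeq2 and 0 to 2 with 1 library left out. Cholesterol egress had 0 higher with no filter and with TMM normalization, 1 with a mean of at least 50 and with edgeR, and 0 to 2 higher and 0 to 1 lower with 1 library left out. The sphingolipid list had 1 higher with edgeR, and 0 to 2 higher and 0 to 1 lower with 1 library left out. The acetyl-CoA list had 1 to 2 higher with 1 library left out.

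Replicate numbers are shared between the groups, but nothing says that they mark pairs, and the main fit did not take them as pairs. Deviations of same-numbered libraries from their group means correlated at 0.11, 0.14 and 0.07 for numbers 1, 2 and 3. Between libraries of different numbers the correlations lay from -0.115 to 0.0016. Each library did correlate best with its own number. Because deviations were taken from group means, positive values for same-numbered libraries push the values for different numbers down. The contrast is therefore in part arithmetic and does not establish that the numbers mark pairs. With the replicate number as a block, 1451 genes were higher and 760 lower over all genes, Npc2 held (adjusted p = 0.0119), and calls were 4 higher for the progranulin list, 2 higher for ceroid lipofuscinosis, 2 higher for recycling complexes, and 1 lower for cholesterol egress. Grn kept its log2 fold change of 0.31 in the block fit, with an SE of 0.16 in place of 0.41, and did not pass (limma adjusted p = 0.201).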
